A study of Mus musculus with 31 samples.

Results

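Liver transcriptomes of wild-type (WT) littermates were compared between 2 mouse lines, one carrying a deletion that removes both isoforms of carbohydrate response element–binding protein (ChREBP; encoded by Mlxipl) and the other a deletion that removes only the ChREBPβ isoform. The members were chosen by label alone: the 8 arrays labelled ChREBPtotal_WT and the 8 arrays labelled ChREBPbeta_WT, 16 of the 31 arrays of the series. None of these 16 arrays came from a mouse labelled as a knockout, so the comparison asks how far mice with no deletion differ between the lines. The 15 knockout arrays, 7 ChREBPtotal_KO and 8 ChREBPbeta_KO, were used to ask whether the same genes differ between the lines when the deletions are present. All 4 groups were male C57BL6/J livers per the study's methods, taken after a 24-hour fast and 18 hours of refeeding with 20% glucose in the drinking water. The β line was made by CRISPR/Cas9 removal of the exon specific to ChREBPβ, and ChREBPtotal_KO mice are Mlxipl-null. Mice of several litters were used in each protocol per the methods, the ages of these mice are not given in the sources used here, and colony, litter, rearing and day of dissection cannot be told apart from line. The 2 lines are called the total line and the β line here, and every difference is the total line minus the β line on the log2 scale of the normalized array signal, so a difference of 1 is a 2-fold change.

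ChREBP is a glucose-responsive transcription factor of hepatocytes and adipocytes that induces glycolytic and lipogenic genes. ChREBPα is the full-length isoform, and ChREBPβ is a shorter isoform transcribed from an alternative promoter of the same gene. After a fast, refeeding with sugar switches the liver from fatty acid oxidation and glucose release toward glycolysis, lipid synthesis and cholesterol synthesis, under insulin, SREBP and ChREBP, while fasting genes under PPARα and glucocorticoids are turned down.

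Replicates 7 and 8 of ChREBPtotal_WT could not be treated as separate mice. Their log2 levels differed with a spread of 0.0526 per array over probes above a level of 9, whereas the other 104 pairs of arrays within a group had spreads of 0.0873 to 0.197 and repeated spots on those same arrays spread by 0.126 and 0.141. The pair thus differed by less than the noise between repeated spots and was averaged to 1 sample, which is called replicate 7 below. The comparison therefore rests on 7 samples of the total line and 8 samples of the β line, among 30 samples in all. Hepatocyte markers were well above background on every WT array and their mean level covered like ranges in both groups, 16.57 to 16.78 in the total line and 16.62 to 16.76 in the β line. Replicates 2 and 7 of ChREBPtotal_WT stood apart in pancreatic transcripts, with mean levels of exocrine pancreas markers of 11.19 and 10.01 against 8.16 to 8.58 in all other WT samples. The arrays lay on 15 slides scanned on 2 days, and each WT group had 4 arrays scanned on each day.

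Mlxipl itself did not separate the WT groups. The brightest of its 3 probes (chromosome 5, 135613705 to 135613764, mm9) read 15.11, 15.28 and 15.55 as lowest, median and highest level in ChREBPtotal_WT and 14.86, 15.08 and 15.32 in ChREBPbeta_WT, and the groups overlapped. The difference was 0.21 (95% interval 0.05 to 0.37; limma adjusted p = 0.0658), and an exact two-sided permutation test gave p = 0.0342, or 0.103 adjusted over the 3 probes. The other probes differed by -0.04 and 0.08 with exact permutation p = 0.537 and 0.66. In the knockout groups the brightest probe read 13.9 to 14.28 in ChREBPtotal_KO and 14.38 to 14.8 in ChREBPbeta_KO, below both WT groups. The probes were not tied to the deleted exons here, so these levels do not check the deletions.

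WT littermates of the lines differed in many transcripts by small amounts. In a limma fit to all 30 samples, 5384 of 36057 probes (14.9%) passed a Benjamini-Hochberg adjusted p of 0.05, of which 2511 (6.96%) were higher and 2873 (7.97%) were lower in the total line. Only 188 called probes (0.521%) reached a 2-fold difference, 66 (0.183%) higher and 122 (0.338%) lower. The levels of the WT groups did not overlap at all for 733 probes (2.03%), 282 (0.782%) higher and 451 (1.25%) lower. Read by the brightest probe of each gene, 3634 of 23968 genes (15.2%) were called, 1620 (6.76%) higher and 2014 (8.4%) lower. Within the first scan day alone 2260 probes were called and within the second alone 676, with 3 or 4 samples a group. The labels number the samples of a group but do not say that each was a separate mouse, so p-values measure only the spread between these samples. The first principal component of the WT samples held 28% of the variance and placed all 7 total-line samples on one side, between -34 and -17, and all 8 β-line samples on the other, between 0.964 and 38.4. Within the β line, replicates 1 to 4 lay at 28.1 to 38.4 and replicates 5 to 8 at 0.964 to 17.3. Dbp splits the same replicates below, and the part of this split in the component was not tested.

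Transcripts for cholesterol synthesis were lower in the total line. Of 24 genes read on the list of cholesterol synthesis and uptake, 11 fell (45.8%, against 8.4% of all genes), none rose and 13 did not pass the test. The median difference was -0.388, against 0.00771 over all genes. The genes that fell ran along the pathway. Among them Hmgcs1 (HMG-CoA synthase), Mvk and Mvd (mevalonate to isopentenyl pyrophosphate), Fdft1 and Sqle (squalene synthesis and epoxidation), Cyp51, Tm7sf2, Msmo1 and Hsd17b7 (lanosterol to cholesterol) and Insig1 (the sterol-sensing retention protein of SREBP) differed by -0.36 to -0.75. The proximal promoter of Hmgcs1, the first enzyme of the set, is printed here because it holds the letters of a sterol regulatory element, the kind of site bound by SREBP-2. The 60 bases lie on the plus strand at chr13:119690194-119690253 (RefSeq, GRCm38.p6), and the capitals mark the element, 137 to 129 bases before the start.
Hmgcs1: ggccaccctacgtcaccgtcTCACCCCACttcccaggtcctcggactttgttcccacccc
The letters TCACNCCAC on either strand were found in the 300-base window around the start of 1 of the 16 list genes with a RefSeq window, and in 1.44% of 27025 genes with a window. A match describes the letters only.

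Hmgcs1 read 14.78, 15.3 and 15.83 (lowest, median, highest) in ChREBPtotal_WT and 15.8, 15.88 and 16.37 in ChREBPbeta_WT, so the groups met only at their edges. It fell by 0.75 (SE 0.16; limma adjusted p = 0.00182), a 1.69-fold lower level, and its other probe, at -0.66, was not called. Hsd17b7 separated the groups fully, at 11.79, 12.07 and 12.23 against 12.62, 12.78 and 12.89, and fell by 0.74 (SE 0.1; limma adjusted p = 5.67e-06). Srebf2, which encodes SREBP-2, had a difference of 0 and was not called. Mvk and Cyp51 were close to the threshold, with adjusted p of up to 0.0802 and 0.092 when any 1 WT sample was left out. Within scan days 1 and 2 alone, 1 and 3 list members were called lower.

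Fatty acid oxidation genes were also lower. Of 31 PPARα targets and fatty acid oxidation genes, 13 fell (41.9%, against 8.4% of all genes) and 1 rose (3.23%, against 6.76%). The median difference was -0.213. Ppara, the nuclear receptor that drives the fasting program, read 12.64, 13.27 and 13.41 in ChREBPtotal_WT and 13.43, 13.69 and 14.38 in ChREBPbeta_WT. These levels did not overlap, and Ppara fell by 0.71 (SE 0.15; limma adjusted p = 0.00195). Cpt1a, which admits long-chain fatty acids to mitochondria, fell by 0.93, Slc25a20 (the carnitine carrier) by 0.41, Acadl and Acadm (acyl-CoA dehydrogenases) by 0.35 and 0.17, and Acaa2 (mitochondrial thiolase) by 0.29. Peroxisomal Acaa1a (a thiolase) fell by 0.34, and Bdh1, which makes β-hydroxybutyrate, fell by 0.43. Vnn1 (pantetheinase, a sensitive PPARα target) fell by 1.17, Cd36 (fatty acid translocase) by 1.05 and Acot2 (mitochondrial thioesterase) by 0.74, while Plin2, a lipid droplet coat protein, fell by 0.35. Cyp4a10, a fatty acid ω-hydroxylase and PPARα target, went the other way and rose by 0.47. Plin2 and Acot2 lost the call in several fits without 1 WT sample, with adjusted p of up to 0.0896 and 0.0838. Within scan days 1 and 2 alone, 11 and 1 members were called lower. With the level of Dbp as a covariate, described below with the clock genes, 9 members were called lower.

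**Figure D1:**
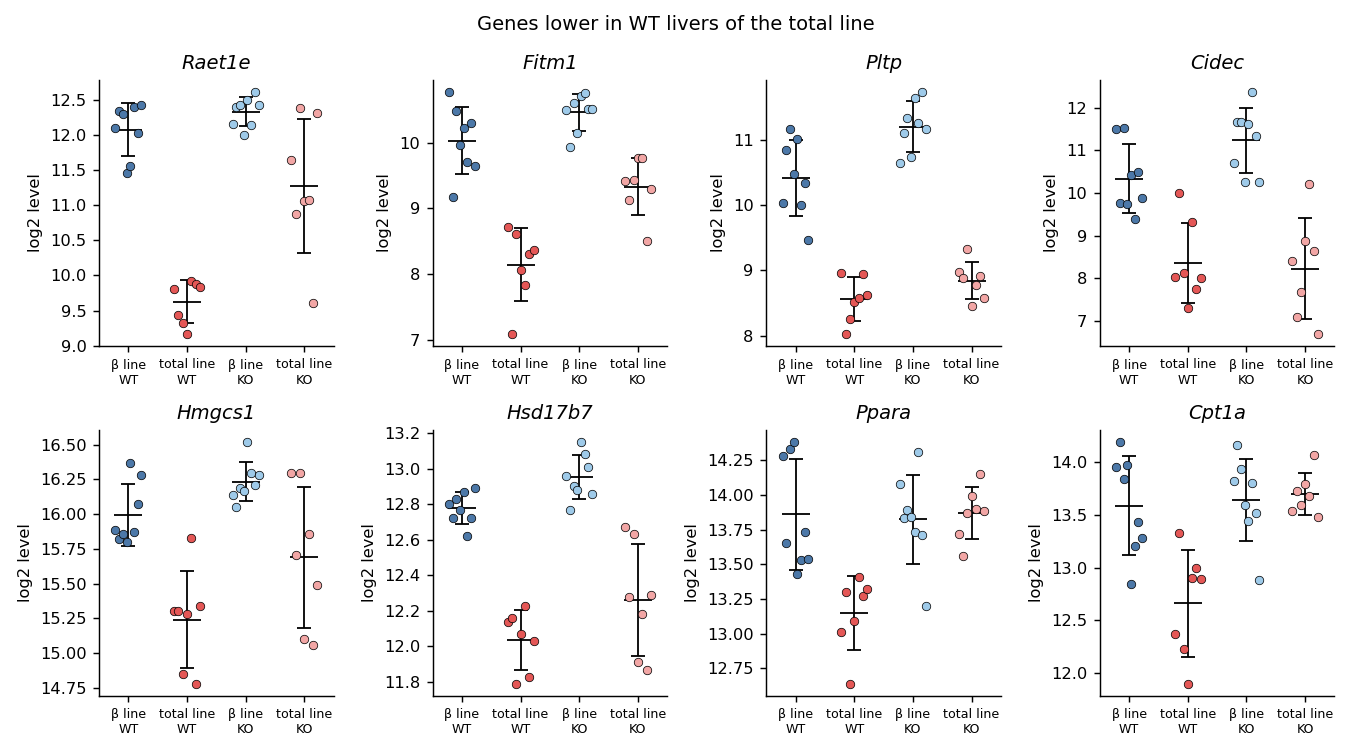
Log2 levels (y axes, 1 panel per gene) of 8 genes that were lower in WT livers of the total line, in each sample of the 4 groups, where points are samples and bars the mean and its SD (n = 8, 7, 8 and 7 from left to right). Raet1e, Fitm1, Pltp, Hsd17b7 and Ppara separate the WT groups without overlap, and Ppara and Cpt1a lie at like levels in the knockout groups, with differences of 0.05 and 0.06.

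Genes of lipid storage fell with them. A list of 20 lipid droplet genes was put together after the values had been seen, so its count only describes these data. Of the 20 genes 5 fell (25%, against 8.4% of all genes), Plin2 above among them, and none rose. Cidec, which fuses lipid droplets, read 7.31, 8.02 and 10 in ChREBPtotal_WT and 9.39, 10.15 and 11.52 in ChREBPbeta_WT. The groups overlapped in the highest total-line sample, and Cidec fell by 1.98 (SE 0.45; limma adjusted p = 0.00317), 3.96-fold. Fitm1, a protein of the endoplasmic reticulum that helps lipid droplets form, read 7.09, 8.31 and 8.71 against 9.17, 10.09 and 10.77 and fell by 1.89 (SE 0.22; limma adjusted p = 1.47e-06), with no overlap. Mogat1, which makes diacylglycerol, fell by 1.13, and Pparg, the adipogenic nuclear receptor whose hepatic targets include Cidec, fell by 0.96. Pltp, the phospholipid transfer protein of plasma lipoproteins, was among the clearest of all differences. It read 8.03, 8.58 and 8.96 in ChREBPtotal_WT and 9.47, 10.4 and 11.17 in ChREBPbeta_WT and fell by 1.86 (SE 0.21; limma adjusted p = 7.66e-07). Of 20 lipoprotein and plasma lipid genes, a list also chosen afterwards, Mttp, which loads lipid onto apolipoprotein B, and Abca1, the cholesterol exporter, rose by 0.3 and 0.34. Of 8 adipocyte markers 1 was called by its brightest probe, Cidec (12.5%, against 8.4% of all genes called lower). Car3, another of the 8, fell by 2 dimmer probes, at -2.22 and -2.18, but its brightest probe differed by -0.25 and was not called. The mean level of the 8 markers was 8.36, 8.56 and 9.95 in ChREBPtotal_WT and 8.92, 9.26 and 9.81 in ChREBPbeta_WT. In the knockout groups it was 8.61, 8.89 and 10.72 against 9.4, 9.67 and 10.16. Its part in the lipid droplet differences was not tested.

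Immediate-early, stress and growth arrest genes were higher in the total line. Of 25 immediate-early and stress genes, a list chosen after the values had been seen, 12 rose (48%, against 6.76% of all genes) and none fell. The median difference was 0.602. Fos, a subunit of AP-1 that is transcribed within minutes of stimulation, read 7.71, 8.5 and 9.9 in ChREBPtotal_WT and 6.07, 6.66 and 7.44 in ChREBPbeta_WT, and rose by 1.97 (SE 0.33; limma adjusted p = 0.000151). Dusp1, a phosphatase that turns off MAP kinases, read 12.48, 12.93 and 13.43 against 9.87, 10.56 and 12.14 and rose by 2.03 (SE 0.35; limma adjusted p = 0.000221). Neither gene overlapped between the WT groups. The AP-1 subunits Jun, Jund and Fosl2 rose by 1, 0.42 and 0.6, the zinc-finger factors Klf2 and Klf4 by 0.67 and 0.63, and Zfp36, which destabilizes inflammatory mRNAs, by 0.86. Myc and Ier3 rose by 0.91 and 0.65. Klf4, Myc and Ier3 lost the call in some fits without 1 WT sample (limma adjusted p of up to 0.0765, 0.0594 and 0.0987). Gadd45g and Gadd45b, which respond to stress and growth arrest, rose by 2.67 and 1.22. Within scan days 1 and 2 alone, 6 and 1 list members were called higher, and 9 were called without the samples that held pancreatic RNA.

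The promoter of Dusp1 is shown because it holds the letters of a full cAMP response element, the kind of site bound by CREB when cAMP signals are high. The 60 bases lie on the minus strand at chr17:26508576-26508635 (RefSeq, GRCm38.p6), and the capitals mark the element, 143 to 136 bases before the start.
Dusp1: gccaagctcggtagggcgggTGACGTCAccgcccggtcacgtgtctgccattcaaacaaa
The palindrome TGACGTCA was found in the windows of 2 of 22 list genes with a RefSeq window, Dusp1 and Btg2, against 2.03% of 27025 genes. Of the pair Dusp1 was called, and Btg2 had a difference of 0.55 that was not.

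Part of the list of glucocorticoid-responsive and metallothionein genes was also higher in the total line. Of 19 read, 7 rose (36.8%, against 6.76% of all genes), none fell and 12 did not pass (median difference 0.729). Igfbp1, an insulin-repressed secreted binding protein for IGFs, read 13.83, 15.37 and 15.93 in ChREBPtotal_WT and 11.17, 13.5 and 14.91 in ChREBPbeta_WT and rose by 2 (SE 0.59; limma adjusted p = 0.0195), with overlapping groups. Cdkn1a, which encodes the cell cycle inhibitor p21, rose by 1.98 by 1 of its 2 probes (the other, at 0.41, was not called). Sgk1, a kinase induced by glucocorticoids, rose by 0.73, Lpin1, a phosphatidate phosphatase, by 0.6 and Sult1e1, the estrogen sulfotransferase, by 0.92. The other members called were Dusp1 and Gadd45b, already counted among the immediate-early and stress genes. Mt1, a metal-binding protein induced by zinc and glucocorticoids, had the largest rise of all named genes by its dimmer probe, 3.18 (SE 0.63; limma adjusted p = 0.000942), with 7.12, 8.88 and 11.7 against 5.56, 5.82 and 7.25. Its brighter probe differed by 1.28 and did not pass (adjusted p = 0.127), and Mt2 differed by 0.99 without passing, so the size for metallothioneins depends on the probe. Without replicates 2 and 7 of ChREBPtotal_WT, 4 list members were called, and Igfbp1 differed by 1.94 (limma adjusted p = 0.0541). With Dbp as a covariate 4 were called, and Igfbp1 differed by 1.3 (limma adjusted p = 0.0665). Within scan days 1 and 2 alone, 5 and 0 were called, with 3 at an unadjusted p under 0.05 in the second.

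Hormone and stress-hormone genes showed both directions. Of the insulin and IGF axis genes 15% were called each way, against 6.76% higher and 8.4% lower over all genes. On the list of 20 insulin and IGF axis genes, Gdf15, a stress hormone of the TGF-β family, rose by 1.79 (SE 0.29; limma adjusted p = 0.000116), from 9.41, 10.33 and 11.52 in ChREBPbeta_WT to 11.31, 12.55 and 12.95 in ChREBPtotal_WT. Enho, which encodes the secreted peptide adropin, rose by 1.24 and Igfbp1 by the value above. Irs2, the insulin receptor substrate of the fasted liver, fell by 0.8, Ghr (the growth hormone receptor) by 0.3 and Igfals, a subunit of the plasma complex that carries IGF-1, by 0.42. Ghr and Igfals kept the call in 11 and 6 of 15 fits without 1 WT sample (limma adjusted p of up to 0.0741 and 0.119). On a list of 16 serine, proline and one-carbon genes and stress factors, chosen afterwards, 5 rose (31.2%) and none fell (median difference 0.108). Among them Aldh18a1 of proline synthesis rose by 1.39, Mthfd2 of mitochondrial folate metabolism by 0.98, Psph of serine synthesis by 0.42 and the transcription factor Cebpb by 0.97. Within the heat shock list, Hspa1a (inducible HSP70) rose by 1.44 and Hspe1, the mitochondrial co-chaperonin, by 0.2, while the other 31 of 33 genes did not pass. The share called higher was 6.06%, near the 6.76% of all genes. Hspe1 kept the call in only 4 of 15 fits without 1 WT sample (limma adjusted p of up to 0.1).

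**Figure D2:**
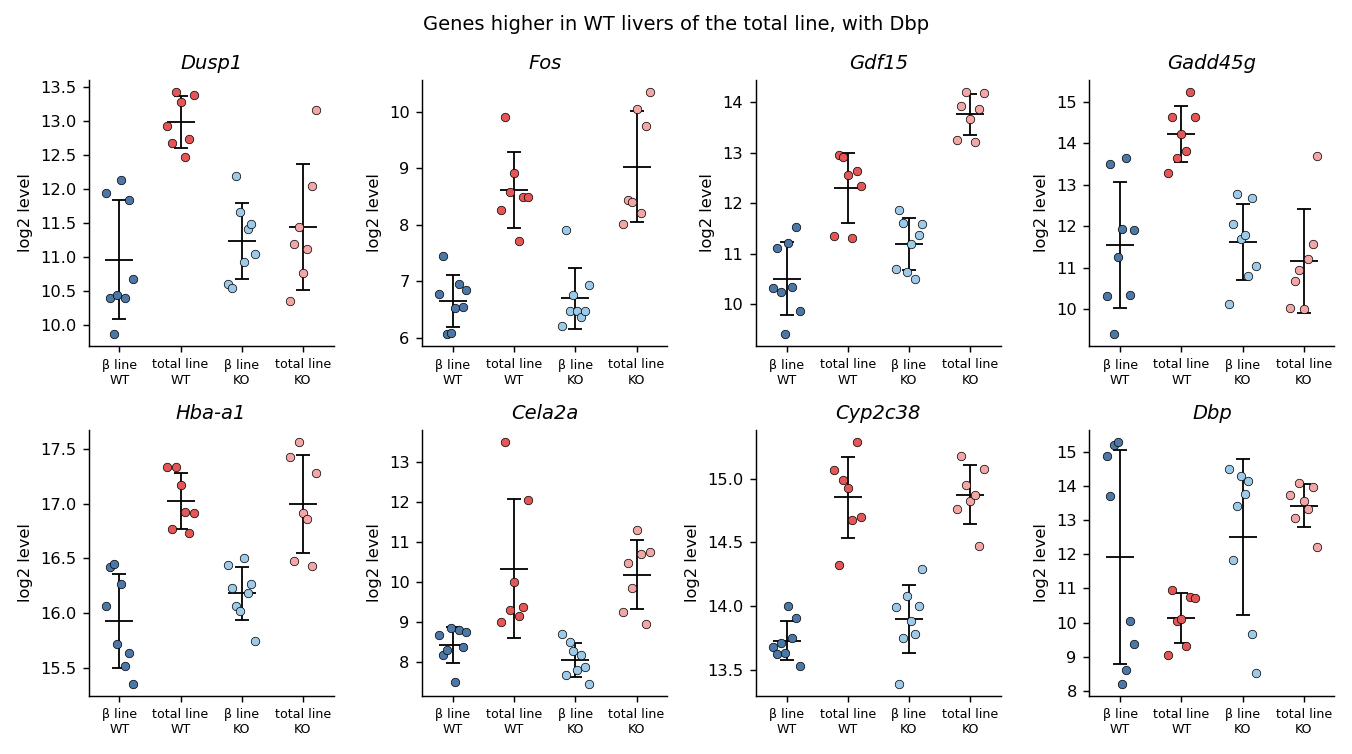
Log2 levels (y axes, 1 panel per gene) in each sample of the 4 groups for 7 genes that were higher in WT livers of the total line and for Dbp, a clock output gene, where points are samples and bars the mean and its SD (n = 8, 7, 8 and 7 from left to right). Dusp1, Fos, Hba-a1, Cela2a and Cyp2c38 do not overlap between the WT groups, and Dbp spans 8.21 to 15.28 in ChREBPbeta_WT against 9.04 to 10.95 in ChREBPtotal_WT.

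The 4 Raet1 genes were among the largest falls. These genes encode stress-induced ligands of NKG2D, the activating receptor of natural killer cells. All 4 Raet1 genes read by the array fell without overlap between the WT groups by the probes named here. Over all genes 8.4% were called lower, and 1.25% of probes lay lower without overlap. The Raet1 genes were listed after the values had been seen, so their count only describes these data. Raet1e (chromosome 10, 21903525 to 21903584, mm9) read 9.17, 9.81 and 9.92 in ChREBPtotal_WT and 11.46, 12.2 and 12.42 in ChREBPbeta_WT. It fell by 2.45 (SE 0.26; limma adjusted p = 4.51e-07), a 5.47-fold lower level. Raet1a, Raet1b and Raet1c fell by 2.59, 2.05 and 2.27, and the second probes of Raet1a and Raet1b had differences of -0.76 and -2.56. The genes are close copies on 1 stretch of chromosome 10, and although no 60-base probe matched a probe of another Raet1 gene at more than 27 positions, signal from each other's transcripts was not checked, so they are not 4 independent observations. Within each scan day alone, which holds part of the same samples, all 4 were called, with the direction fixed by the lack of overlap.

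Red blood cell transcripts were higher in the total line. Of 8 markers read, 5 rose (62.5%, against 6.76% of all genes), all of them adult globins. Hba-a1 rose by 1.09, Hba-a2 by 1.08, Hbb-bt by 0.95, Hbb-b1 by 1.05 and Hbb-b2 by 1.04. Hba-a1 read 16.73, 16.92 and 17.33 in ChREBPtotal_WT and 15.36, 15.9 and 16.45 in ChREBPbeta_WT (SE 0.17; limma adjusted p = 8.13e-05), with no overlap. The probes of Hba-a1 and Hba-a2 match at 59 of 60 bases and cannot be told apart. The mean level of the 8 markers was 12.02 to 12.43 in ChREBPtotal_WT and 11.21 to 12.07 in ChREBPbeta_WT. In whole liver, more cells of a type and more RNA per cell cannot be told apart, and the amount of blood left in each liver was not recorded in the sources used here. The neutrophil markers S100a8, S100a9 and Retnlg also rose, by 0.84, 1.05 and 0.57, 3 of 7 markers (42.9%). The mean level of the 7 markers was 7.68 to 8.3 against 7 to 8.04. S100a8 and Retnlg were near the threshold, with adjusted p of up to 0.113 and 0.105 without 1 sample. Within scan days 1 and 2 alone, 2 and 5 globins were called.

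Other cell types gave few calls. Pecam1 (endothelium) rose by 0.21 and Col4a1 (basement membrane) by 0.46, 1 gene each of 10 and 13 markers. None of 14 Kupffer cell, 6 bile duct or 11 lymphocyte markers passed in limma, where 1, 0 and 0 had an unadjusted p under 0.05, and none passed in an exact Mann-Whitney test. Cela2a and Ctrc, digestive enzymes of the exocrine pancreas, rose by 1.91 and 1.77 without overlap between the WT groups, Ctrc by 1 of its 2 probes (the other differed by 0.05). Cela2a read 8.99, 9.38 and 13.5 in ChREBPtotal_WT and 7.5, 8.53 and 8.84 in ChREBPbeta_WT. Without replicates 2 and 7 the difference was 0.93 (limma adjusted p = 0.0407). Cela3b, another elastase, reached 10.41 in the total line and at most 5.5 in the β line, with a difference of 1.38 that did not pass (adjusted p = 0.0563). Tff3, a mucosal peptide of goblet cells and bile ducts, rose by 2.64 (SE 0.73; limma adjusted p = 0.0135), from 7.57, 8.23 and 12.04 to 8.63, 11.81 and 14.21. What these transcripts contribute to the other differences was not tested beyond the fit without those 2 samples, in which 4488 probes were called.

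Detoxification genes gave calls in both directions. Among 28 xenobiotic cytochrome P450 genes, 2 rose (7.14%, near the 6.76% of all genes) and 5 fell (17.9%, against 8.4%). Cyp2c38 read 14.32, 14.93 and 15.29 in ChREBPtotal_WT and 13.53, 13.7 and 14 in ChREBPbeta_WT and rose by 1.13 (SE 0.12; limma adjusted p = 7.15e-07), with no overlap, and Cyp2c29 rose by 0.31. Cyp26a1, which degrades retinoic acid and is itself induced by it, read 7.22, 7.92 and 9.74 against 9, 10.42 and 12.51 and fell by 2.4 (SE 0.52; limma adjusted p = 0.00202). Cyp3a25 fell by 1.03, Cyp2a22 by 0.36, Cyp2e1 (the ethanol-inducible enzyme of pericentral hepatocytes) by 0.27 and Cyp2d26 by 0.18. Over all 46 genes whose symbols start with Cyp2, 2 rose (4.35%) and 12 fell (26.1%). Cyp39a1, an oxysterol hydroxylase, rose by 0.78 without overlap, and Slco1a4, a hepatic uptake carrier of bile acids and other organic anions, fell by 1.28. Among conjugation and NRF2 genes, Gstp1, Txnrd1 and Gclm rose by 0.69, 0.3 and 0.2, and Gsta4 fell by 0.35. Of 21 male-biased genes Gstp1 was called higher and Cyp4a12a lower (by 0.62), 4.76% each way, below the shares of all genes. Cyp4a12a kept the call in 6 of 15 fits without 1 WT sample (limma adjusted p of up to 0.119). Of 16 female-biased genes Cyp39a1 and Sult1e1 were called higher and Acot3 and Slc22a26 lower (by 1.1 and 0.31), 12.5% each way.

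Amino acid catabolism gave 5 falls (17.2%, against 8.4% of all genes) and no rise among 29 genes, with a median difference of -0.19. Oat, which converts ornithine, read 13.75, 14.24 and 14.61 in ChREBPtotal_WT and 14.79, 15.07 and 15.76 in ChREBPbeta_WT and fell by 0.99 (SE 0.14; limma adjusted p = 1.97e-05). Prodh (proline dehydrogenase) fell by 0.44, also without overlap, and the transaminases Got1 and Gpt and the urea cycle enzyme Arg1 fell by 0.71, 0.3 and 0.38. This count depended on single samples, with 11 members called lower without ChREBPtotal_WT replicate 2 and 9 without ChREBPbeta_WT replicate 5.

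Genes of the ChREBP program gave 0 to 6 calls per list between the WT groups. By their brightest probes 0 of 7 pentose phosphate pathway genes were called. Of 18 lipogenic core genes only Mid1ip1, an activator of acetyl-CoA carboxylase, was called, with a rise of 0.48, 5.56% against 6.76% of all genes, and the list median was 0.0753. Fasn (fatty acid synthase), Acaca (acetyl-CoA carboxylase), Scd1 (stearoyl-CoA desaturase) and Elovl6 (fatty acid elongase) had differences of 0.39, 0.54, 0.57 and 0.54 that did not pass by their brightest probes. Of 21 ChREBP targets 3 rose (14.3%) and none fell, with a median of 0.25 and 16 of 21 above 0. Klf10 rose by 1.03, Bhlhe40 by 0.7 and Ppp1r3b, a glycogen-targeting phosphatase subunit, by 0.36, and Pklr, the liver pyruvate kinase, had a difference of 0.38 that did not pass. Of 19 genes of glucose entry, glycolysis and release 3 rose and 3 fell (15.8% each way), with a median of 0.00934. Gpi1, Slc37a4 (the glucose-6-phosphate transporter) and Pgam1 rose by 0.63, 0.46 and 0.16, and Pdk2, Pfkfb1 and Pcx fell by 0.44, 0.4 and 0.19. Pgm2 and Phka2 of glycogen metabolism fell by 0.35 and 0.33. Bhlhe40 and Ppp1r3b did not keep the call in all fits without 1 WT sample (adjusted p of up to 0.0933 and 0.105).

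Among clock genes, Dbp, a circadian output factor with a large daily swing, read 13.71 to 15.28 in replicates 1 to 4 of ChREBPbeta_WT and 8.21 to 10.05 in replicates 5 to 8, whereas all ChREBPtotal_WT samples lay between 9.04 and 10.95. Its mean difference of -1.77 did not pass (adjusted p = 0.243). ChREBPbeta_KO ranged from 8.52 to 14.49, whereas ChREBPtotal_KO lay at 12.22 to 14.08, wholly above ChREBPtotal_WT, and the knockout difference of 0.9 did not pass either. Of 14 core clock genes, Clock and Csnk1d, a clock kinase, rose by 0.42 and 0.19, and Nr1d1 (REV-ERBα) fell by 0.77. These were 14.3% called higher and 7.14% lower, against 6.76% and 8.4% of all genes. Per3 and Arntl (BMAL1) had differences of -1.51 and 1.13 that did not pass. Clock and Nr1d1 reached adjusted p of 0.0888 and 0.0794 when 1 sample was left out. With each sample's Dbp level as a covariate 4069 probes were called, of which 3728 were called in the same direction without it and 0 in the opposite one. The time of day at which each liver was taken is not given in the sources used here.

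Several groups of genes gave few or no calls. By their brightest probes, none of 26 acute-phase and none of 38 interferon-stimulated genes passed in limma or in the exact Mann-Whitney test. In limma 2 and 4 of them had an unadjusted p under 0.05, which 29.2% of all probes reached. By any probe, 1 acute-phase gene was called higher in limma, Mt1 by its dimmer probe as above, and 1 lower. For interferon-stimulated genes these counts were also 1 and 1. Antigen presentation gave 2 falls of 24 (8.33%, near the 8.4% of all genes), H2-D1 by 0.22 and H2-Q1 by 0.8. Of 75 cytosolic ribosomal protein genes Rpl9 and Rps15a rose by 0.13 and 0.14 (2.67%, against 6.76% of all genes). Of 44 oxidative phosphorylation genes Ndufa1 rose by 0.13 (2.27%), and Ndufa2, Ndufs1 and Ndufs8 fell by 0.16, 0.15 and 0.16 (6.82%). Rrm2 and Ccnd1 of the cell cycle rose by 0.75 and 0.5 (8.33%), and Birc5 fell by 0.83 (4.17%). Rrm2, Ccnd1 and Birc5 lost the call in several fits without 1 WT sample (limma adjusted p of up to 0.0759, 0.0855 and 0.0891). Called probes lay on every chromosome, between 13% of probes on chromosome 9 and 17.7% on chromosome 10 among the autosomes, and 15.6% of 250 probes within 5 Mb of Mlxipl were called.

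Of the 12 genes with the largest falls, Sema5b, Gnai1 and Olig1 belong to no list above, and Car3 is on the list of adipocyte markers. Car3, carbonic anhydrase III of muscle, adipocytes and male liver, fell by 2.22 by the named probe, 8.24, 10.04 and 10.98 against 10.9, 11.95 and 13.25, and by 2.18 by another, but its brightest probe differed by -0.25 and was not called. Sema5b, a semaphorin, Gnai1, an inhibitory G protein subunit, and Olig1, a transcription factor, fell by 1.73, 1.55 and 1.52, Sema5b by 1 of its 4 probes. Atp2b2, a plasma membrane calcium pump, Artn, a neurotrophic ligand, and Eva1c rose by 2.12, 2.11 and 1.89. Atp2b2 read 9.38, 10.7 and 11.4 against 7.07, 8.38 and 9.92. All 25 genes named for size or separation kept the call when any of the 15 WT samples was left out. All 25 kept their direction within each scan day, with 19 and 10 of them called on days 1 and 2. These genes were picked by their differences in the same samples, so these fits are not a replication. For genes whose WT groups do not overlap, the direction within each day was fixed in advance.

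**Figure D3:**
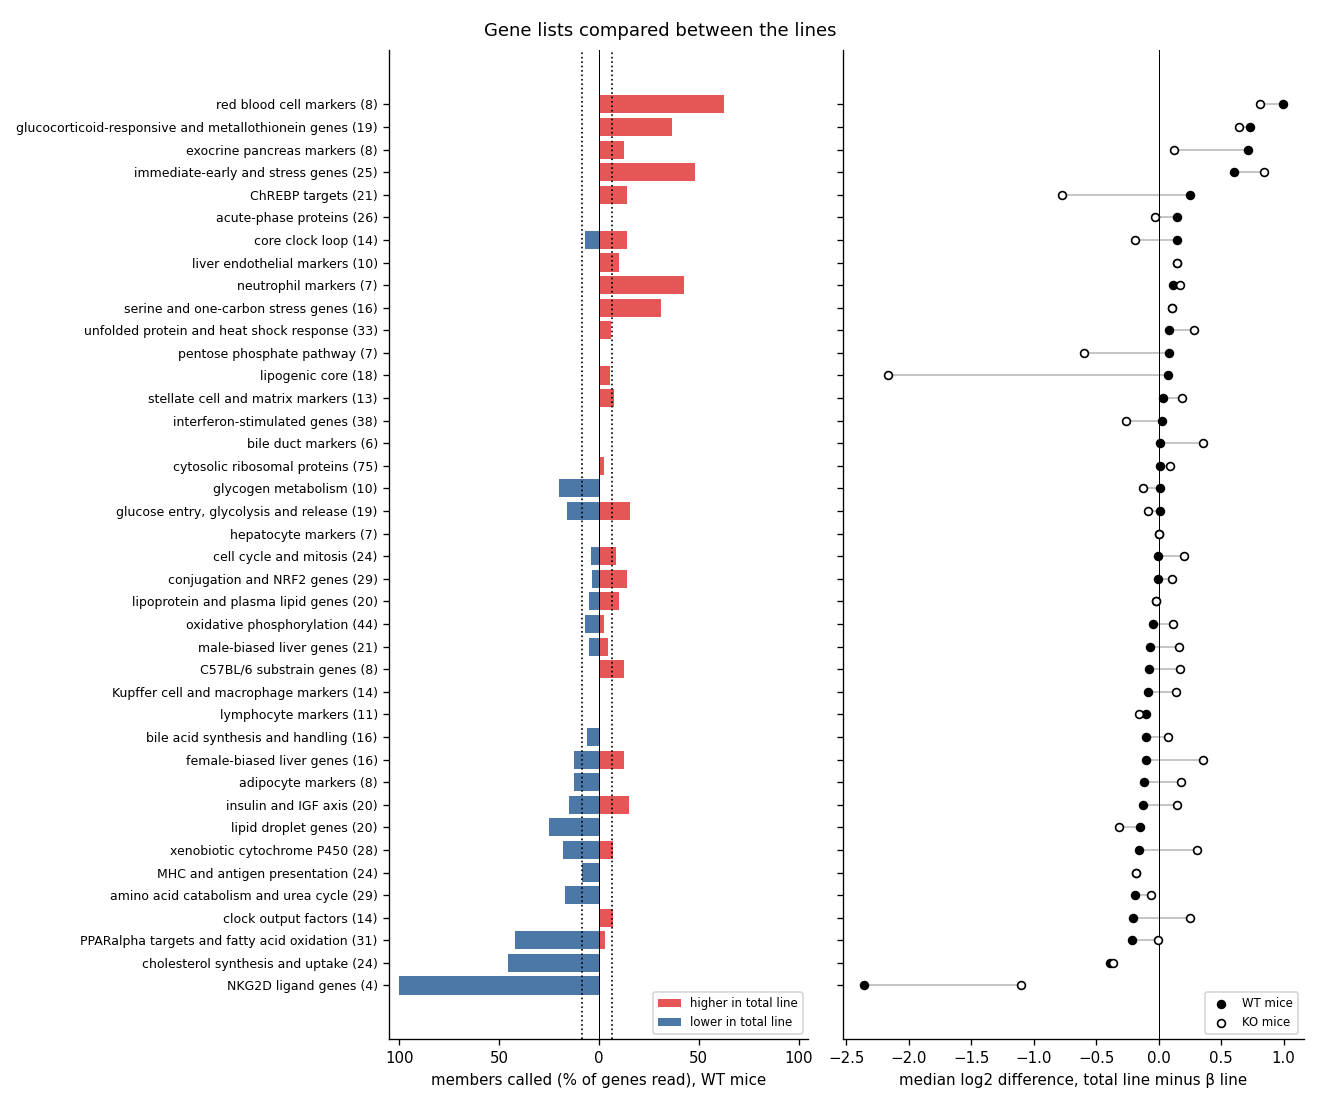
Left, percent of the genes read on each list (number in brackets) that were called higher (red) or lower (blue) in WT livers of the total line, with dotted lines at the shares for all genes, 6.76% and 8.4%. Right, median log2 difference of each list between the lines in WT mice (filled) and knockout mice (open). Cholesterol synthesis has like medians in both (-0.388 and -0.367), whereas the lipogenic core moves from 0.0753 to -2.17.

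The knockout groups, which share no sample with the WT groups, differed between the lines in more probes. The limma fit called 11856 of 36057 probes (32.9%), 6055 (16.8%) higher and 5801 (16.1%) lower in ChREBPtotal_KO than in ChREBPbeta_KO. By the brightest probe 33% of genes were called, 16.6% higher and 16.4% lower. In this contrast line and deletion cannot be told apart, because ChREBPtotal_KO lacks both isoforms and ChREBPbeta_KO lacks ChREBPβ alone. Of the 5384 probes called in WT mice, 4160 (77.3%) had the same sign in knockout mice, against 61.8% of all probes. Among them 2467 (45.8%) were also called in the same direction in knockout mice and 362 (6.72%) in the opposite one, against 22.8% and 10% of all probes. The line difference itself differed between knockout and WT mice at an adjusted p under 0.05 for 1380 (25.6%) of the probes called in WT mice. That share cannot be read against the 14.8% of all probes, because the test contains the WT difference for which these probes were chosen. Tests of this kind for genes named below by their WT difference carry the same selection. Of the 716 called probes whose WT groups did not overlap, 88.1% had the same sign and 66.5% were called in the same direction in knockout mice. Over all probes the differences in WT and knockout mice correlated with r = 0.32, a description across probes, which are not independent.

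**Figure D4:**
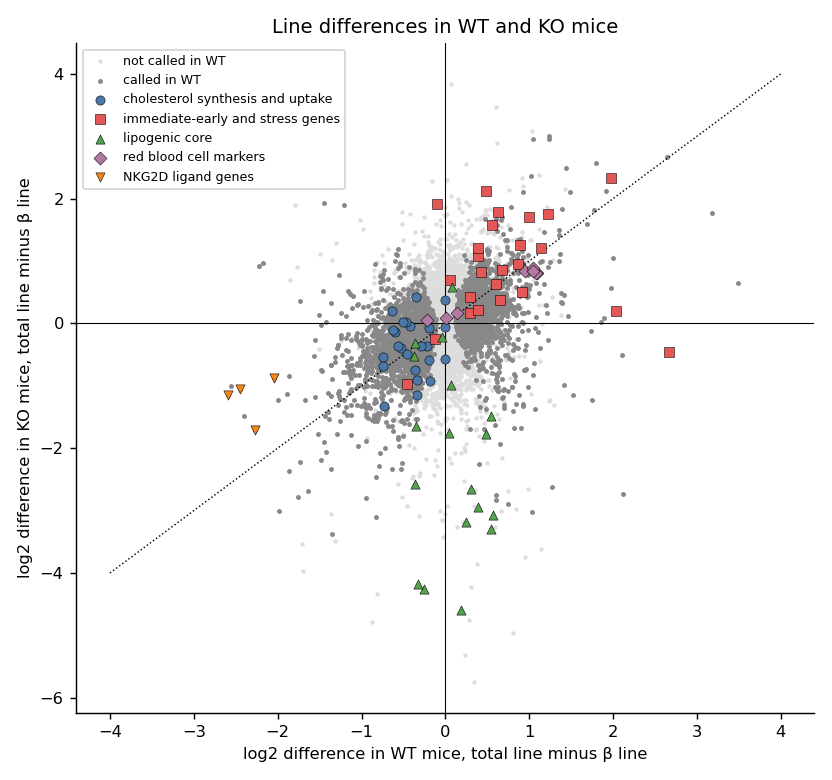
Log2 difference between the lines in WT mice (x axis) and in knockout mice (y axis) for 36057 probes, with probes called in WT mice in dark grey and the brightest probes of 5 gene lists in colour, where the dotted line marks equal differences. Globins sit near equal differences, Raet1 genes keep their sign with smaller differences in knockout mice, and lipogenic genes lie near 0 in WT mice and down to -4.6 in knockout mice.

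Some groups differed in the same way in both genotypes. All 5 globins were again higher in ChREBPtotal_KO, by 0.81 to 0.88, and Fos rose by 2.33 (SE 0.33; limma adjusted p = 2.42e-06), from 6.21, 6.47 and 7.91 in ChREBPbeta_KO to 8.02, 8.44 and 10.35 in ChREBPtotal_KO. Of the 12 immediate-early and stress genes called in WT mice, 8 were called higher in knockout mice as well, against 41.4% of all probes called higher in WT mice. Klf2 rose by 0.85, Jun by 1.71, Gdf15 by 2.57 and Cela2a by 2.12. Pltp fell by 2.36 in knockout mice (SE 0.21; limma adjusted p = 6.58e-10), Cidec by 3, Fitm1 by 1.13 and Pparg by 0.63, and Cyp2c38 rose by 0.99. For Fos, Pltp, Cidec, Fitm1, Pparg, Klf2, Jun, Gdf15 and Cyp2c38 the difference did not itself differ between genotypes at an adjusted p under 0.05, which does not show that it was equal. Of the 11 cholesterol genes that fell in WT mice, 5 fell in knockout mice too: Hmgcs1 by 0.54, Mvd by 1.32, Sqle by 0.4, Hsd17b7 by 0.69 and Insig1 by 0.74. Among all probes called lower in WT mice 49.7% were called lower in knockout mice, so this count is not above the general share. The other 6 cholesterol genes were not called, and of these Msmo1, at 0.2, differed from its WT value with an adjusted p of 0.00406.

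All 4 Raet1 genes also fell in knockout mice, as did 49.7% of all probes called lower in WT mice. Their differences were smaller than in WT mice by the first-named probe of each. The second probe of Raet1a went the other way, at -0.99 in knockout mice against -0.76 in WT mice. Raet1e read 12 to 12.61 in all 8 ChREBPbeta_KO samples, at or above the upper part of the ChREBPbeta_WT range, but 9.61 to 12.38 in ChREBPtotal_KO, where replicate 7 had 9.61, close to ChREBPtotal_WT, and replicates 4 and 8 had 12.38 and 12.31, at the level of the β line. The remaining 4 samples lay between, from 10.87 to 11.64. The difference in knockout mice, -1.05, differed from that in WT mice by 1.4 (SE 0.37; limma adjusted p = 0.00869), as did those of Raet1a and Raet1b, by 1.44 and 1.18, whereas that of Raet1c (0.55) did not pass.

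Of the 31 fatty acid oxidation genes 6 were higher and 7 lower in ChREBPtotal_KO, with a median of -0.00761. Over all genes 16.6% were called higher and 16.4% lower there, so calls in both directions are not particular to this list. Ppara and Cpt1a had differences of 0.05 and 0.06 in knockout mice, and their line differences differed between genotypes by 0.76 and 0.98 (limma adjusted p = 0.0159 and 0.0169). Of the 13 genes of that list that fell in WT mice 4 fell in knockout mice: Bdh1, Vnn1, Cd36 and Plin2. The share over all probes called lower in WT mice was 49.7%. Dusp1 and Gadd45g, with differences of 0.2 and -0.46 in knockout mice, did not pass there, and ChREBPtotal_KO read 10.35, 11.19 and 13.17 for Dusp1 against 10.55, 11.24 and 12.2 in ChREBPbeta_KO. Of the 18 lipogenic core genes 15 were lower in ChREBPtotal_KO, against 16.4% of all genes. The differences were -2.95 for Fasn, -3.07 for Scd1, -3.29 for Elovl6 and -1.49 for Acaca, and none of these 4 had passed in WT mice. Klf10, Bhlhe40, Lpin1, Mid1ip1, Gpi1, Slc37a4, Rrm2 and Atp2b2 rose in WT mice of the total line and were lower in its knockout mice relative to the β line, with differences of -3.03, -1.36, -2.75, -1.78, -1.09, -1.7, -2.89 and -2.74. Cyp2e1, Cyp2a22, Cyp4a12a and Gpt turned the other way, falling in WT mice and rising by 0.28, 0.87, 0.55 and 0.32 in knockout mice.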

How the data were processed

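Liver RNA of 31 samples was hybridised to 1-colour Agilent mouse arrays and read with Agilent Feature Extraction 10.10.1.1, per the labels. The deposited table holds log2 values of 36057 probes: per the methods, the authors filtered median signals on flags (26 of 32 arrays, or 6 of a group), quantile normalized them and took medians of repeated probes. Deposited scanner intensities were used only for alternatives. They correlated with the table at 0.9985 to 1. The table's array medians were 7.504 to 7.511, and 50 values are missing. Gene names are those of the array (mm9); 23246 probes matched RefSeq accessions, and 1086 had another current symbol.

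Replicates 7 and 8 of ChREBPtotal_WT were averaged. A linear model of 4 groups was fitted to 30 samples with limma 3.58.1 in R 4.3.3, with moderated tests and Benjamini-Hochberg adjustment over all probes at 0.05, which applies to every call printed. The script was tested on simulated data. No probe of the table was saturated, and 34131 to 38612 spots per array were well above background; the number of arrays limits precision. Lists were read by each gene's brightest probe.

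Named genes were Mlxipl, the 12 called genes with the largest rise and fall that were well above background on 6 of 8 arrays of each WT group, 10 called genes with no overlap, all called members of 35 gene lists, and up to 4 uncalled members of highest level per list. Of the last, only those bearing on a result were named, and some genes that the rule names are not reported here. A further 5 lists and some genes were chosen after their values were seen. Members and lists were chosen with earlier results of these data known. Same-numbered replicates did not pair the WT groups (4 of 7 correlations of deviations over 0.1), so the replicate block is an alternative only.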

Additional observations from a re-analysis of the deposited data

Results flagged for a closer look

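For 50 of 142 genes with values in the text, the difference between the lines in knockout mice minus that in WT mice passed the limma interaction test, a log2 value given in brackets here. Most genes were named for their WT difference, which this test contains, so the share cannot be read against the 14.8% of all probes. The signs below are those of the estimates, and opposite signs do not mean that both differences passed. In knockout mice Abca1, Mttp, Cpt1a and Cyp2d26, for example, differed by -0.05, -0.12, 0.06 and 0.07 and were not called. Pklr, Fasn, Scd1, Elovl6 and Acaca were not called in WT mice. The value was below 0, with differences of opposite sign in WT and knockout mice, for Atp2b2 (-4.86), Pklr (-4.24), Klf10 (-4.07), Elovl6 (-3.83), Scd1 (-3.64), Rrm2 (-3.64), Lpin1 (-3.36), Fasn (-3.34), Gadd45g (-3.13), Artn (-2.62), Mid1ip1 (-2.26), Slc37a4 (-2.16), Bhlhe40 (-2.06), Acaca (-2.03), Gpi1 (-1.72), Mlxipl (-0.67), Mttp (-0.42), Abca1 (-0.39). It was below 0 with the same sign in both for Dusp1 (-1.82), Eva1c (-1.81), Aldh18a1 (-1.07), Plin2 (-0.88), Got1 (-0.87), Pfkfb1 (-0.68), Cebpb (-0.49), Pcx (-0.42). It was above 0 with opposite signs for Car3 (3.14), Cyp2a22 (1.22), Cyp4a12a (1.17), Cpt1a (0.98), Msmo1 (0.83), Igfals (0.77), Ppara (0.76), Gpt (0.62), Cyp2e1 (0.55), Slc25a20 (0.54), Acaa1a (0.46), Acadm (0.28), Ndufa2 (0.26), Cyp2d26 (0.25). It was above 0 with the same sign in both for Enho (1.75), Raet1a (1.44), Raet1e (1.4), Gnai1 (1.28), Cyp4a10 (1.2), Raet1b (1.18), Klf4 (1.16), Oat (0.64), Jund (0.41), Pgm2 (0.28).

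In 16 of 284 tested groups of WT levels, 1 sample stood far from the rest of its group by Dixon's test; chance flags about 1 group in 20. ChREBPbeta_WT replicate 2 was apart in Ier3 (6.93, highest, next to 6.25), Vnn1 (8.95, lowest, next to 10.01), Mttp (11.96, lowest, next to 12.31), Slc37a4 (14.19, lowest, next to 14.84). ChREBPbeta_WT replicate 5 was apart in Eva1c (9.29, highest, next to 8.07), Jun (12.95, highest, next to 11.58), Aldh18a1 (7.66, highest, next to 7.03), Elovl6 (15.16, highest, next to 14.21). ChREBPbeta_WT replicate 7 was apart in Abca1 (11.87, lowest, next to 12.1), Pfkfb1 (12.6, highest, next to 12.42). ChREBPtotal_WT replicate 2 was apart in Birc5 (7.62, highest, next to 6.37), Slco1a4 (9.52, highest, next to 8.28), Pgm2 (15.01, highest, next to 14.75). ChREBPtotal_WT replicate 4 was apart in Acadm (14.78, lowest, next to 14.94). ChREBPtotal_WT replicate 6 was apart in Igfbp1 (13.83, lowest, next to 15.04), Pdk2 (11.35, highest, next to 10.97).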

How the results depend on the processing

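The 5384 probes called between WT groups, 11856 between knockout groups, 5324 whose line difference differed between genotypes and 2467 called in both in the same direction stayed within 1.5 times of these counts under other scanner processing, background correction, scaling, filters, slide as a random block, scan day as a block, array weights, a trend in eBayes and 1 probe per gene. With slide as a fixed block 1798 were called in WT mice and 860 in both, with 3 cholesterol, 6 fatty acid oxidation, 2 glucocorticoid, 2 red cell, 3 lipid droplet, 0 cytochrome P450 (7 at an unadjusted p under 0.05 in limma) and 2 amino acid genes; only 2 slides hold both WT groups. Within scan day 1 the counts were 2260 (WT), 4620 (knockout), 1561 (between genotypes) and 610 (both), with 1 cholesterol, 6 immediate-early, 2 red cell, 3 lipid droplet, 2 cytochrome P450 and 3 amino acid genes. Within scan day 2 they were 676, 7075, 1472 and 420, with 3, 1 (fatty acid oxidation), 0 (glucocorticoid; 3 unadjusted), 1 (immediate-early), 1 (lipid droplet), 1 (cytochrome P450) and 1 (amino acid); these fits have fewer samples. There Igfals differed by 0.05 and Cyp4a12a by 0.14, both the other way and not called. An exact Mann-Whitney test called 2871 (WT) and 1338 (both), with 5 fatty acid oxidation, 3 glucocorticoid, 3 cytochrome P450 and 2 amino acid genes. Asking for a fold of 1.5 as well left 893, 2440, 1932 and 346, with 6 cholesterol, 5 fatty acid oxidation, 2 cytochrome P450 and 2 amino acid genes. Array weights gave 9 amino acid genes.

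Counting replicates 7 and 8 of ChREBPtotal_WT as 2 samples, an alternative added after seeing the data, gave 6148 WT probes. Also added were the fit without both samples with pancreatic RNA (4 glucocorticoid and 8 amino acid genes) and the fit with Dbp as a covariate (4 and 3). With the replicate block, which did not pair the samples, 6114 WT probes were called and no count of calls above moved by over 1.5 times. By this check 2 of 7 samples matched best with their own number. Without each sample in turn, the WT count ran from 4054 to 6028, the knockout count from 10930 to 11562, the count between genotypes from 4545 to 5664, the shared count from 1987 to 2580 and the amino acid count from 4 to 11. Of 134 genes called in WT mice that the naming rule or the text picked, 90 kept the call in all 15 of these fits. The cause of these shifts was not tested.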
